A study of Mus musculus with 8 samples.

Results

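The quantity described here is the change between day 3 and day 7 in how bone marrow mesenchymal stem cells differed with and without S7. RNA was sequenced from 8 libraries, 1 for each of 4 scaffold extract arms on each day of osteogenic differentiation. The arms with S7 were PCL-S, which had S7 alone, and PCL-SE, which had S7 and E7. The arms without S7 were PCL-O, the blank, and PCL-E, which had E7 alone. PCL stands for polycaprolactone, a polyester used for scaffolds, and medium in which the scaffolds had been soaked was given to the cells. S7 and E7 are named as peptides in the series title, without a sequence or a dose. That PCL-O is the blank was inferred by elimination. All arms held wild-type cells, which the labels call a cell line, under the same osteogenic treatment. The labels name the mouse, whereas the deposited gene identifiers are from the rat, so gene symbols follow the rat identifiers and no sequence or coordinate was used. Genes were kept when they had a rat Ensembl identifier and at least 5 CPM (counts scaled to library size) in 2 or more libraries, which left 10700 of 26873 features.

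For each gene, the S7 ratio of a day was the fitted log2 ratio of PCL-S and PCL-SE to PCL-O and PCL-E. The change was the S7 ratio on day 7 minus the S7 ratio on day 3, tested as the S7 by day term of an edgeR quasi-likelihood fit in which E7 was a covariate. A positive change means that the S7 ratio was higher on day 7 than on day 3. CPM values are normalised with TMM (trimmed mean of M values) factors, and a gene was called at a Benjamini-Hochberg adjusted p under 0.05. Each arm had 1 library a day, so the error rested on how far the 2 arms of a kind departed from the fitted terms, with 3 residual degrees of freedom, and not on repeated cultures.

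Bone marrow mesenchymal cells divide while they expand, and they leave the cell cycle as they differentiate. On the way to bone cells they first lay down a matrix rich in type I collagen, which needs collagen-folding enzymes in the endoplasmic reticulum, and they mineralise it later. NRF2 is a transcription factor that turns on detoxifying and iron-storing genes under oxidative or electrophilic stress.

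Total counts ran from 32950326 to 41754124 per library, at which 3 counts correspond to 0.0718 to 0.0910 CPM, a limit that covers counting error only. Bone marrow stromal markers were present, and 18 of them summed to 8090 CPM (PCL-S) and 8660 CPM (PCL-SE) on day 7, against 12500 CPM (PCL-O) and 11900 CPM (PCL-E). On day 3 they summed to 14100 CPM (PCL-S) and 14300 CPM (PCL-SE), against 13700 CPM (PCL-O) and 13600 CPM (PCL-E). The 19 leukocyte markers summed to 17.6 CPM (PCL-S) and 15.8 CPM (PCL-SE) on day 7, against 11.9 CPM (PCL-O) and 10.3 CPM (PCL-E), and to 17.9 CPM (PCL-S) and 19.6 CPM (PCL-SE) on day 3, against 7.79 CPM (PCL-O) and 8.26 CPM (PCL-E). This sum was thus higher in the S7 arms on both days, it was mostly Cd14, and Adgre1, Tyrobp and Cd3e were at 0; its part in the results was not tested. Erythroid and megakaryocyte markers summed to at most 1.04 CPM over 9 genes. The S7 libraries of day 7 stood apart from the other 6 libraries: their 20 most abundant genes held 10.6% of counts in PCL-S and 10.3% in PCL-SE, against 15.3% to 18.5% elsewhere. Their TMM factors were 1.187 and 1.198, against 0.9178 to 1.009 elsewhere. With library totals in place of TMM, the median change over all genes was 0.293 in place of -0.004, so changes near this size depend on the scaling.

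The S7 ratio differed between the days for 4127 of 10700 genes, which is 38.6% of those tested. It was higher on day 7 for 1869 genes (17.5% of those tested) and lower for 2258 genes (21.1%). In bulk RNA, fewer cells of a type and less RNA per cell cannot be told apart. Higher ratios made up 45.3% of the calls, and 73.6% with total-count scaling. The change was at least 2-fold for 1382 called genes, of which 395 were higher and 987 lower on day 7. On day 7 itself the S7 ratio was called for 60.4% of the genes, and on day 3 for 19% of them. The median absolute S7 ratio over all tested genes was 0.428 on day 7 and 0.187 on day 3. The last called gene had an adjusted p of 0.04989 and the first gene past the threshold 0.05005 in edgeR. At the expression limit, Fam210b and Casp6 had 5.0075 CPM in their second-highest library and were kept, and Tmod2 and Ttc12 had 4.9836 CPM and were not.

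Called genes were sorted by their 2 daily ratios. A gene reversed when it was called on both days with opposite signs, and 337 genes did so. A gene appeared late when its S7 ratio was called at 1 log2 unit or more on day 7 and lay under 0.5 on day 3, which held for 758 genes. A gene faded when the ratio was called at 1 or more on day 3 and lay under 0.5 on day 7, which held for 72 genes. Another 253 genes were called with the same sign on both days and a larger ratio on day 7, and 40 genes were called with the same sign and a smaller ratio on day 7. The other 2667 genes met none of these definitions, and 2306 of them changed by less than 1 log2 unit. These class sizes are descriptions, since the classes were cut from the same fit. The CPM of the S7 arms did not overlap that of the other arms for 79.5% of all tested genes on day 7, 73.2% on day 3 and 58.9% on both days. It did not overlap on either day for 336 of the 337 reversing genes, so a lack of overlap adds little for a single gene.

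**Figure D1:**
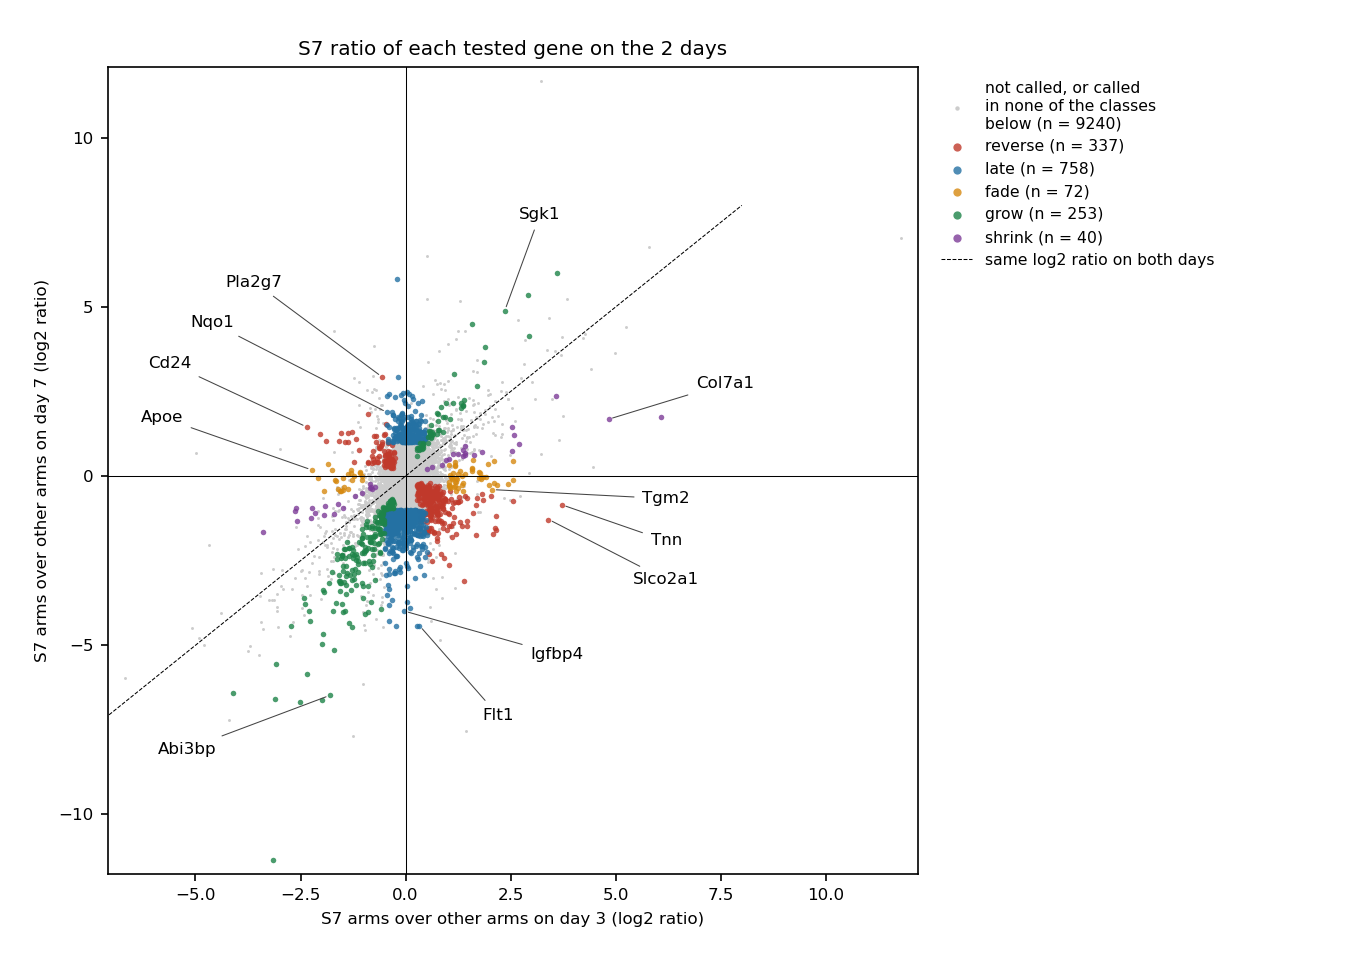
Each point is 1 tested gene, with its S7 ratio on day 3 on the horizontal axis and on day 7 on the vertical axis, both in log2 units. Genes that reversed (337) lie in the upper left and lower right areas, late genes (758) lie along the vertical axis and fading genes (72) along the horizontal axis; the dashed line marks equal ratios.

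For reversing, late and fading genes, as for the other called genes, the change between the days lay mostly in the arms with S7. From day 3 to day 7, the level changed past the test in the S7 arms for 335 of the 337 reversing genes, and in the arms without S7 for 27 of them. For late genes the counts were 739 with S7 and 41 without S7, and for fading genes 64 with S7 and 5 without S7. The remaining called genes were alike. Of 253 growing genes the counts were 242 with S7 and 24 without S7, and of 40 shrinking genes 36 and 3. Of the 2667 genes in none of these classes they were 2536 and 50. Reversing genes that ended higher had a median day 7 over day 3 log2 ratio of 1.13 with S7 and 0.03 without S7. Those that ended lower had a median of -1.34 with S7 and 0.12 without S7. Late genes had medians of 1.16 (higher) and -1.32 (lower) with S7, against 0.03 and -0.04 without S7. The difference between these 2 day changes is the change itself, so their inequality is part of what chose the genes. These counts were not made over all tested genes, so they do not set these classes apart from the rest.

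Of the reversing genes, 247 were above the other arms on day 3 and below them on day 7. Their median S7 ratio was -0.74 on day 7 and 0.63 on day 3. Slco2a1, a membrane transporter that takes up prostaglandins, had 2.10 CPM (PCL-S) and 2.49 CPM (PCL-SE) on day 7, against 6.97 CPM (PCL-O) and 4.42 CPM (PCL-E). It had 46.0 CPM (PCL-S) and 41.0 CPM (PCL-SE) on day 3, against 3.73 CPM (PCL-O) and 4.50 CPM (PCL-E). The S7 arms were thus the lowest libraries on day 7 and the highest on day 3, without overlap on either day, and the change was -4.68 ± 0.34 (SE; edgeR adjusted p = 0.00114). Tnn, which encodes the matrix glycoprotein tenascin-N, had 22.2 CPM (PCL-S) and 47.2 CPM (PCL-SE) on day 7, against 51.0 CPM (PCL-O) and 71.0 CPM (PCL-E). The gene had 329 CPM (PCL-S) and 304 CPM (PCL-SE) on day 3, against 21.4 CPM (PCL-O) and 28.0 CPM (PCL-E). PCL-S and PCL-SE differed more from each other on day 7 than on day 3, and the change was -4.57 ± 0.36 (SE; edgeR adjusted p = 0.0012). With total-count scaling the day 7 ratio of Tnn was -0.56 and the gene no longer counted as reversing, while the change was still called.

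Other proteins of the extracellular space followed the same course. Mfap5, a protein of elastic microfibrils, had 2.63 CPM (PCL-S) and 2.52 CPM (PCL-SE) on day 7, against 10.8 CPM (PCL-O) and 6.27 CPM (PCL-E). It had 38.4 CPM (PCL-S) and 43.1 CPM (PCL-SE) on day 3, against 7.96 CPM (PCL-O) and 11.4 CPM (PCL-E), and its S7 ratio changed by -3.78 ± 0.42 (SE; edgeR adjusted p = 0.00217). Ecm1, a secreted matrix protein, had 5.42 CPM (PCL-S) and 4.34 CPM (PCL-SE) on day 7, against 14.5 CPM (PCL-O) and 18.5 CPM (PCL-E). Ecm1 had 72.9 CPM (PCL-S) and 79.1 CPM (PCL-SE) on day 3, against 22.4 CPM (PCL-O) and 25.3 CPM (PCL-E). The S7 ratio of Ecm1 was -1.75 on day 7 and 1.67 on day 3, and the groups did not overlap on either day, as in 336 of the 337 reversing genes. Ssc5d, a secreted scavenger receptor protein, changed by -3.65 ± 0.38 (SE; edgeR adjusted p = 0.00201) with ratios of -2.63 on day 7 and 1.03 on day 3. Filip1, which binds filamin, changed by -3.34 ± 0.21 (SE; edgeR adjusted p = 0.000831) with ratios of -2.43 on day 7 and 0.91 on day 3. All 6 of these genes kept the call and its direction whichever library was left out, whereas 3 to 6 of the 6 still counted as reversing, depending on the library left out. With each arm as a replicate block, Ssc5d did not count as reversing.

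The opposite course, lower than the other arms on day 3 and higher on day 7, was taken by 90 genes. Their median S7 ratio was 0.56 on day 7 and -0.47 on day 3. Pla2g7, which breaks down platelet-activating factor, had 66.1 CPM (PCL-S) and 76.6 CPM (PCL-SE) on day 7, against 9.07 CPM (PCL-O) and 9.66 CPM (PCL-E). It had 1.98 CPM (PCL-S) and 1.73 CPM (PCL-SE) on day 3, against 2.59 CPM (PCL-O) and 2.94 CPM (PCL-E). Levels on day 7 were thus higher than on day 3 in all 4 arms, but most in the S7 arms, and the S7 ratio changed by 3.49 ± 0.18 (SE; edgeR adjusted p = 0.000831). Cd24, a sialoglycoprotein of the cell surface, had 15.5 CPM (PCL-S) and 22.2 CPM (PCL-SE) on day 7, against 3.08 CPM (PCL-O) and 11.2 CPM (PCL-E). It had 2.56 CPM (PCL-S) and 2.65 CPM (PCL-SE) on day 3, against 15.9 CPM (PCL-O) and 9.82 CPM (PCL-E). The groups did not overlap on either day, and the change was 3.80 ± 0.76 (SE; edgeR adjusted p = 0.011); without PCL-SE day 3 it was 3.62 and the adjusted p was 0.0508.

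Edil3, a secreted protein that binds integrins, had S7 ratios of 1.23 on day 7 and -2.03 on day 3 and changed by 3.26 ± 0.35 (SE; edgeR adjusted p = 0.00215). Brinp3, a gene of a family that retinoic acid induces in neurons, had ratios of 1.17 on day 7 and -0.75 on day 3 and changed by 1.92 ± 0.22 (SE; edgeR adjusted p = 0.00229). Adcy8, a calcium-stimulated adenylyl cyclase, had ratios of 1.01 on day 7 and -1.36 on day 3 and changed by 2.38 ± 0.48 (SE; edgeR adjusted p = 0.0117), a call that was lost without PCL-O day 3 or PCL-SE day 3. Slc40a1 encodes ferroportin, the exporter of iron from cells, and is carried by 2 identifiers in the table, so its counts are uncertain. The more abundant entry had 26.4 CPM (PCL-S) and 29.1 CPM (PCL-SE) on day 7, against 8.20 CPM (PCL-O) and 20.2 CPM (PCL-E), and 5.73 CPM (PCL-S) and 4.57 CPM (PCL-SE) on day 3, against 13.9 CPM (PCL-O) and 14.7 CPM (PCL-E). Its change was 2.46 ± 0.49 (SE; edgeR adjusted p = 0.011), a call that was lost without PCL-O day 3 or PCL-S day 7. The status of these 6 genes as reversing was less stable than their change: none of the 6 still counted as reversing without PCL-S day 3 or without PCL-SE day 3. With each arm as a replicate block, Cd24, Pla2g7 and Adcy8 did not.

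**Figure D2:**
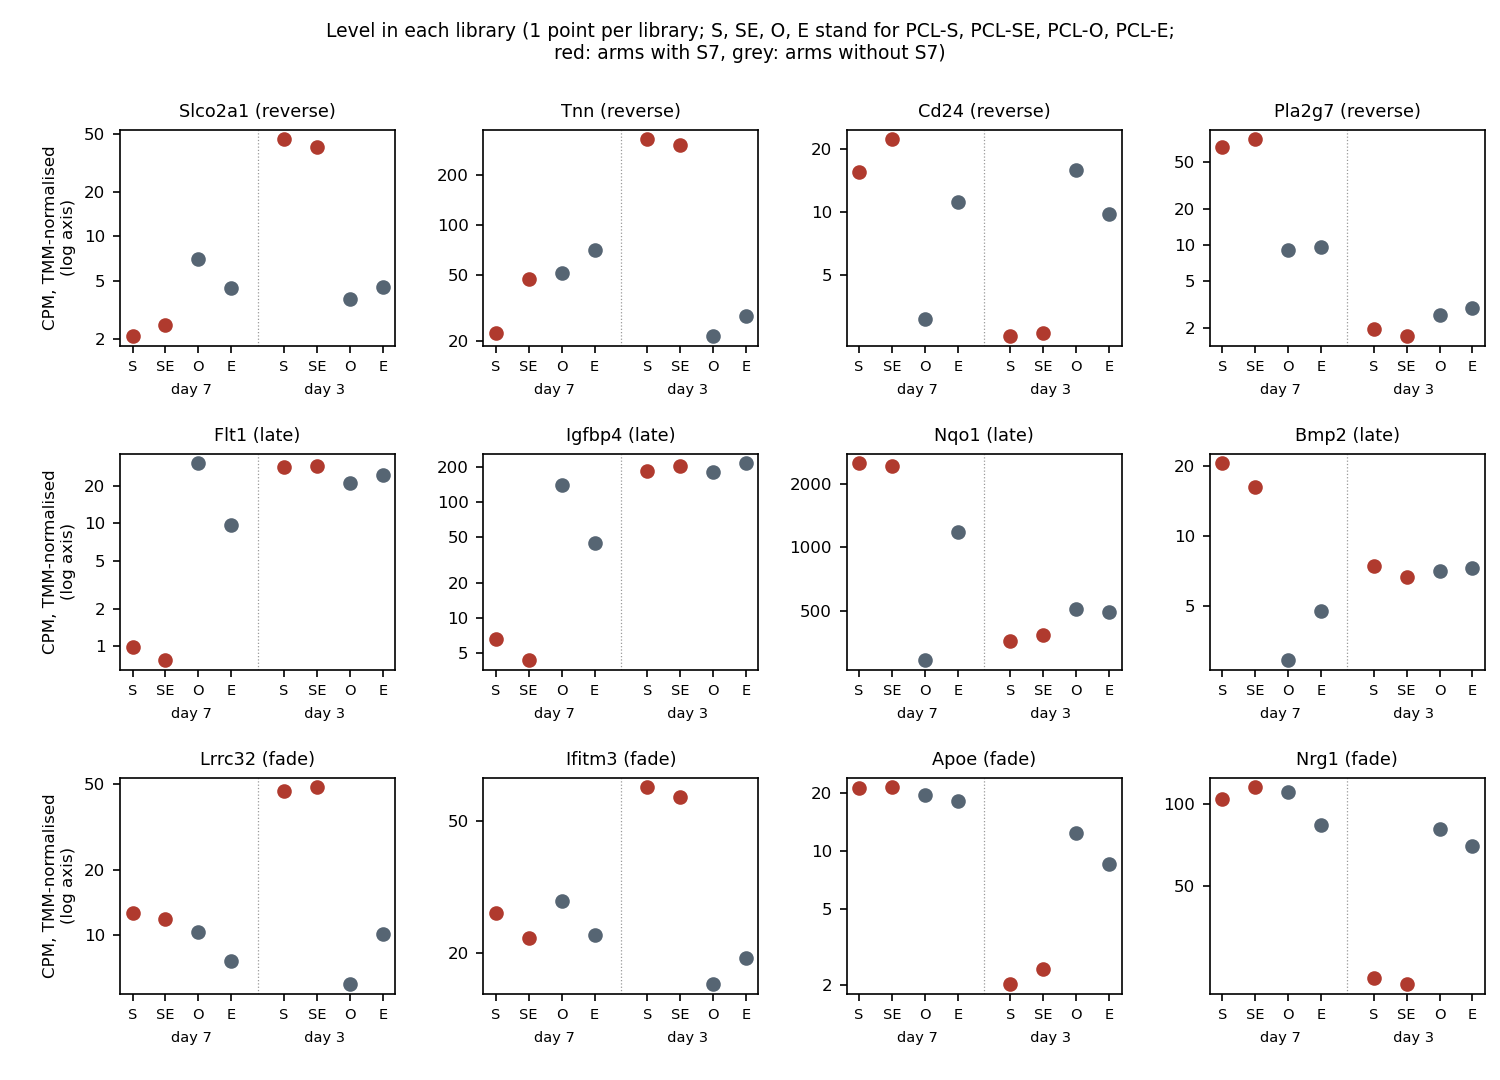
TMM-normalised CPM on a log axis in each of the 8 libraries for example genes of each class, with day 7 left of day 3 and PCL-S and PCL-SE (red) left of PCL-O and PCL-E (grey). In Slco2a1 the red points lie below the grey ones on day 7 and above them on day 3, in Igfbp4 they separate on day 7 and meet on day 3, and in Ifitm3 they meet on day 7 and separate on day 3.

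Among the 758 genes that appeared late, 518 were lower and 240 higher in the S7 arms on day 7. Myh11, the smooth muscle myosin heavy chain, had 19.0 CPM (PCL-S) and 15.4 CPM (PCL-SE) on day 7, against 347 CPM (PCL-O) and 133 CPM (PCL-E). It had 482 CPM (PCL-S) and 478 CPM (PCL-SE) on day 3, against 469.9 CPM (PCL-O) and 463 CPM (PCL-E). All 4 libraries of day 3 lay within a narrow range, and on day 7 the S7 arms were far below PCL-O and PCL-E, a change of -3.77 ± 0.47 (SE; edgeR adjusted p = 0.0029). Casq2, a calcium-binding protein of the muscle sarcoplasmic reticulum, had 2.68 CPM (PCL-S) and 1.89 CPM (PCL-SE) on day 7, against 69.8 CPM (PCL-O) and 31.4 CPM (PCL-E). It had 136 CPM (PCL-S) and 139 CPM (PCL-SE) on day 3, against 105 CPM (PCL-O) and 122 CPM (PCL-E). Its S7 ratio changed by -4.69 ± 0.48 (SE; edgeR adjusted p = 0.00192), and on day 7 even PCL-O and PCL-E had less of it than on day 3.

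Igfbp4 encodes a secreted binding protein of insulin-like growth factors. It had 6.60 CPM (PCL-S) and 4.38 CPM (PCL-SE) on day 7, against 140.4 CPM (PCL-O) and 44.0 CPM (PCL-E), and 185 CPM (PCL-S) and 203 CPM (PCL-SE) on day 3, against 179 CPM (PCL-O) and 214 CPM (PCL-E). The 4 arms overlapped on day 3 and were apart on day 7, and the change was -3.96 ± 0.65 (SE; edgeR adjusted p = 0.00606). Nrep, a small intracellular protein linked to TGF-beta signalling, had 4.32 CPM (PCL-S) and 3.49 CPM (PCL-SE) on day 7, against 104 CPM (PCL-O) and 52.3 CPM (PCL-E), and 18.1 CPM (PCL-S) and 15.2 CPM (PCL-SE) on day 3, against 22.6 CPM (PCL-O) and 21.1 CPM (PCL-E). Here the day change ran in opposite directions, with day 7 levels above day 3 levels in PCL-O and PCL-E and below them in PCL-S and PCL-SE, and the S7 ratio changed by -3.86 ± 0.31 (SE; edgeR adjusted p = 0.00123). Kank4, a cytoskeletal adaptor of the KN motif and ankyrin repeat family, changed by -4.19 ± 0.62 (SE; edgeR adjusted p = 0.00455). Its day 7 levels were 1.99 CPM (PCL-S) and 0.712 CPM (PCL-SE), against 42.1 CPM (PCL-O) and 16.8 CPM (PCL-E). With 2 CPM added, the change of Kank4 was -3.14 for PCL-S over PCL-O and -2.66 for PCL-SE over PCL-E, so its size depends on low levels.

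Flt1, a receptor for vascular endothelial growth factor, had 0.997 CPM (PCL-S) and 0.779 CPM (PCL-SE) on day 7, against 30.8 CPM (PCL-O) and 9.73 CPM (PCL-E), and 28.8 CPM (PCL-S) and 29.4 CPM (PCL-SE) on day 3, against 21.3 CPM (PCL-O) and 24.6 CPM (PCL-E). Its S7 ratio changed by -4.75 ± 0.68 (SE; edgeR adjusted p = 0.00411). Flt1 is on the list of endothelial markers, of which 14 were matched; they summed to 26.1 CPM (PCL-S) and 26.0 CPM (PCL-SE) on day 7, against 65.6 CPM (PCL-O) and 39.6 CPM (PCL-E). On day 3 they summed to 54.6 CPM (PCL-S) and 56.6 CPM (PCL-SE), against 50.7 CPM (PCL-O) and 49.6 CPM (PCL-E). The defining endothelial genes Cdh5, Tie1, Emcn and Cldn5 were at 0 in every library.

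Late genes that ended higher were the smaller group. Tmem35a, a chaperone of nicotinic acetylcholine receptors, had 98.9 CPM (PCL-S) and 102 CPM (PCL-SE) on day 7, against 10.9 CPM (PCL-O) and 15.3 CPM (PCL-E), and 17.5 CPM (PCL-S) and 18.6 CPM (PCL-SE) on day 3, against 22.4 CPM (PCL-O) and 18.7 CPM (PCL-E). The day 3 values of the groups lay close together, and on day 7 both S7 arms were far above both other arms, a change of 3.13 ± 0.23 (SE; edgeR adjusted p = 0.00114). Arhgap22 changed by 2.52 ± 0.27 (SE; edgeR adjusted p = 0.00212), and Acot2, a mitochondrial acyl-CoA thioesterase, by 2.21 ± 0.33 (SE; edgeR adjusted p = 0.00463). Bmp2, a bone morphogenetic protein that drives bone formation, had 20.5 CPM (PCL-S) and 16.2 CPM (PCL-SE) on day 7, against 2.92 CPM (PCL-O) and 4.72 CPM (PCL-E), and 7.40 CPM (PCL-S) and 6.65 CPM (PCL-SE) on day 3, against 7.07 CPM (PCL-O) and 7.28 CPM (PCL-E). The 4 libraries of day 3 overlapped, on day 7 the S7 arms were above and the other arms below their day 3 levels, and the S7 ratio changed by 2.28 ± 0.35 (SE; edgeR adjusted p = 0.00488).

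Cpt1a, which brings fatty acids into mitochondria for oxidation, had 214 CPM (PCL-S) and 224 CPM (PCL-SE) on day 7, against 15.8 CPM (PCL-O) and 74.1 CPM (PCL-E), and 36.2 CPM (PCL-S) and 41.3 CPM (PCL-SE) on day 3, against 55.2 CPM (PCL-O) and 43.8 CPM (PCL-E). PCL-E lay between PCL-O and the S7 arms on day 7, and the change was 2.82 ± 0.78 (SE; edgeR adjusted p = 0.0312). The call of Cpt1a was lost when PCL-O day 3 (adjusted p 0.102 in edgeR), PCL-S day 3 (0.0867), PCL-SE day 3 (0.1), PCL-S day 7 (0.102) or PCL-SE day 7 (0.0686) was left out. Nqo1, a quinone reductase and standard NRF2 target, had 2500.5 CPM (PCL-S) and 2424 CPM (PCL-SE) on day 7, against 294 CPM (PCL-O) and 1192 CPM (PCL-E), and 361 CPM (PCL-S) and 384 CPM (PCL-SE) on day 3, against 511 CPM (PCL-O) and 494 CPM (PCL-E). PCL-E was again between PCL-O and the S7 arms on day 7, and the change was 2.32 ± 0.70 (SE; edgeR adjusted p = 0.0409). Nqo1 lost its call in DESeq2 (adjusted p 0.0502), without the E7 term (0.0508) and when any library other than PCL-O day 7 or PCL-E day 7 was left out (0.0697 to 0.134 in edgeR). With each arm as a replicate block its day 3 ratio was -0.52, past the limit for late genes.

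Fading was the least common course. Of the 72 genes, 49 were higher in the S7 arms on day 3 and 23 were lower. Ifitm3, an antiviral membrane protein, had 26.4 CPM (PCL-S) and 22.1 CPM (PCL-SE) on day 7, against 28.7 CPM (PCL-O) and 22.6 CPM (PCL-E), and 63.1 CPM (PCL-S) and 59.2 CPM (PCL-SE) on day 3, against 16.1 CPM (PCL-O) and 19.2 CPM (PCL-E). The groups overlapped on day 7 and were apart on day 3, and the change was -1.86 ± 0.20 (SE; edgeR adjusted p = 0.00217). Gucy1a1, a subunit of the nitric oxide receptor, had 10.5 CPM (PCL-S) and 8.70 CPM (PCL-SE) on day 7, against 7.74 CPM (PCL-O) and 12.1 CPM (PCL-E), and 71.5 CPM (PCL-S) and 63.5 CPM (PCL-SE) on day 3, against 14.6 CPM (PCL-O) and 25.6 CPM (PCL-E). Its day 7 levels overlapped between the groups and its S7 ratio changed by -1.81 ± 0.39 (SE; edgeR adjusted p = 0.0137), with an adjusted p of 0.0588 without PCL-S day 3.

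Lrrc32, which docks latent TGF-beta on the cell surface, changed by -2.10 ± 0.36 (SE; edgeR adjusted p = 0.00699) with ratios of 0.45 on day 7 and 2.55 on day 3; with total-count scaling its day 7 ratio was 0.75 and the gene counted as shrinking. Susd2, a membrane protein used to isolate mesenchymal stromal cells, changed by -1.66 ± 0.26 (SE; edgeR adjusted p = 0.00563) with ratios of 0.10 on day 7 and 1.76 on day 3. Tgm2, a protein-crosslinking transglutaminase, had 2.97 CPM (PCL-S) and 3.43 CPM (PCL-SE) on day 7, against 5.31 CPM (PCL-O) and 3.09 CPM (PCL-E), and 29.5 CPM (PCL-S) and 31.8 CPM (PCL-SE) on day 3, against 4.77 CPM (PCL-O) and 10.1 CPM (PCL-E). The groups overlapped on day 7 and were apart on day 3, and the change was -2.46 ± 0.54 (SE; edgeR adjusted p = 0.0148); the adjusted p was between 0.0502 and 0.0702 in edgeR when any 1 of the S7 libraries was left out. Rpl9, a ribosomal protein gene with processed copies in the genome, changed by -2.24 ± 0.34 (SE; edgeR adjusted p = 0.00509), and its counts are uncertain for that reason.

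In the other direction, Apoe, a carrier of cholesterol and other lipids, had 21.4 CPM (PCL-S) and 21.5 CPM (PCL-SE) on day 7, against 19.7 CPM (PCL-O) and 18.3 CPM (PCL-E), and 2.03 CPM (PCL-S) and 2.42 CPM (PCL-SE) on day 3, against 12.5 CPM (PCL-O) and 8.54 CPM (PCL-E). The S7 arms were well below the others on day 3 and slightly above them on day 7, and the change was 2.41 ± 0.27 (SE; edgeR adjusted p = 0.00221). Nrg1, a ligand of ErbB receptors, had 104 CPM (PCL-S) and 115 CPM (PCL-SE) on day 7, against 111 CPM (PCL-O) and 84.0 CPM (PCL-E), and 23.1 CPM (PCL-S) and 22.0 CPM (PCL-SE) on day 3, against 80.9 CPM (PCL-O) and 70.1 CPM (PCL-E). The groups overlapped on day 7, and the change was 1.91 ± 0.19 (SE; edgeR adjusted p = 0.00177). With total-count scaling the day 7 ratio was 0.47 for both genes, and both counted as reversing.

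Slc1a3, a glutamate transporter, changed by 1.53 ± 0.28 (SE; edgeR adjusted p = 0.00837). Kcnk2, a mechanosensitive potassium channel, changed by 1.57 ± 0.28 (SE; edgeR adjusted p = 0.00787), and Slitrk5, a synaptic adhesion protein, by 1.37 ± 0.24 (SE; edgeR adjusted p = 0.00709). Grem1, a secreted antagonist of bone morphogenetic proteins, had 1422 CPM (PCL-S) and 1395 CPM (PCL-SE) on day 7, against 1473 CPM (PCL-O) and 2232 CPM (PCL-E), and 295 CPM (PCL-S) and 313 CPM (PCL-SE) on day 3, against 1040.5 CPM (PCL-O) and 811 CPM (PCL-E). PCL-S and PCL-SE were lower than both other arms on both days, but by little against PCL-O on day 7, and the change was 1.22 ± 0.29 (SE; edgeR adjusted p = 0.0191). The Grem1 call was lost in DESeq2 (adjusted p 0.056) and when PCL-O day 3 or any 1 S7 library was left out (0.0556 to 0.0759 in edgeR).

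Some S7 ratios kept their sign and grew. Sgk1, a kinase induced by glucocorticoids, had 523 CPM (PCL-S) and 494 CPM (PCL-SE) on day 7, against 13.5 CPM (PCL-O) and 21.2 CPM (PCL-E), and 122 CPM (PCL-S) and 155 CPM (PCL-SE) on day 3, against 26.9 CPM (PCL-O) and 26.8 CPM (PCL-E). The groups were apart on both days, and the ratio changed by 2.54 ± 0.25 (SE; edgeR adjusted p = 0.00177). Glrx, which reduces glutathionylated proteins, changed by 2.44 ± 0.41 (SE; edgeR adjusted p = 0.00658), with ratios of 5.36 on day 7 and 2.92 on day 3. Rem2, a small GTPase that inhibits calcium channels, changed by 2.92 ± 0.56 (SE; edgeR adjusted p = 0.01), and lost the call without PCL-O day 3 or PCL-E day 3. Its day 3 levels were all low, at 0.528 CPM (PCL-S) and 0.693 CPM (PCL-SE), against 0.189 CPM (PCL-O) and 0.214 CPM (PCL-E). Abi3bp, a secreted matrix protein, had 0.895 CPM (PCL-S) and 0.556 CPM (PCL-SE) on day 7, against 89.9 CPM (PCL-O) and 43.6 CPM (PCL-E), and 20.6 CPM (PCL-S) and 22.9 CPM (PCL-SE) on day 3, against 91.6 CPM (PCL-O) and 65.2 CPM (PCL-E). The deficit in the S7 arms was present on day 3 and larger on day 7, a change of -4.68 ± 0.43 (SE; edgeR adjusted p = 0.00162). Col2a1, the main collagen of cartilage, changed by -4.18 ± 0.69 (SE; edgeR adjusted p = 0.00626) with ratios of -6.69 on day 7 and -2.50 on day 3, and Cntn3, a contactin adhesion protein, by -3.51 ± 0.45 (SE; edgeR adjusted p = 0.00298). Cntn3 had 0.588 CPM (PCL-S) and 0.245 CPM (PCL-SE) on day 7. With 2 CPM added, its change was -1.40 for PCL-S over PCL-O and -1.30 for PCL-SE over PCL-E. For Abi3bp these values were -2.94 and -2.73, so the size of both changes depends on levels under 1 CPM. Col2a1 had 1.89 CPM (PCL-S) and 0.712 CPM (PCL-SE) on day 7. Its values with 2 CPM added were -2.43 for PCL-S over PCL-O and -3.01 for PCL-SE over PCL-E, so its size depends on low levels too.

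Other ratios kept their sign and shrank. Col7a1, which forms the anchoring fibrils of basement membranes, had 12.7 CPM (PCL-S) and 17.1 CPM (PCL-SE) on day 7, against 3.34 CPM (PCL-O) and 5.96 CPM (PCL-E), and 71.4 CPM (PCL-S) and 66.4 CPM (PCL-SE) on day 3, against 2.05 CPM (PCL-O) and 2.88 CPM (PCL-E). The excess in the S7 arms was far smaller on day 7, a change of -3.15 ± 0.31 (SE; edgeR adjusted p = 0.00177). Msln, a cell-surface protein of mesothelium, changed by -1.80 ± 0.31 (SE; edgeR adjusted p = 0.00714), and Gpx3, a secreted glutathione peroxidase, by -1.75 ± 0.24 (SE; edgeR adjusted p = 0.00366). A negative ratio shrank for Snap91, a clathrin assembly protein, by 1.68 ± 0.21 (SE; edgeR adjusted p = 0.00288), and for Emp2, a tetraspan membrane protein, by 1.01 ± 0.30. The call of Emp2 was lost when PCL-O, PCL-S or PCL-E day 3, or PCL-S or PCL-SE day 7, was left out, and also without the E7 term (adjusted p 0.0773 in edgeR) and with an E7 by day term (0.0514).

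Gene groups were described with 48 lists, of which 797 genes were tested and 453 called (56.8%, against 38.6% of all tested genes). Since the lists were drawn up with earlier results of these data known, their counts are descriptions. The median change over all tested genes was -0.004.

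Of 27 tested genes of mitosis, 23 reversed. All 27 had a lower S7 ratio on day 7 than on day 3, with a median change of -1.44. On day 7 their median S7 ratio was -0.79 and 23 were called lower in the S7 arms. On day 3 the median was 0.66 and 26 were called higher. Mki67, the proliferation marker Ki-67, had 60.4 CPM (PCL-S) and 67.1 CPM (PCL-SE) on day 7, against 131 CPM (PCL-O) and 93.1 CPM (PCL-E), and 189 CPM (PCL-S) and 188 CPM (PCL-SE) on day 3, against 94.8 CPM (PCL-O) and 110.0 CPM (PCL-E). The S7 arms held the highest values on day 3 and the lowest on day 7, a change of -1.69 ± 0.24 (SE; edgeR adjusted p = 0.00404). Top2a, the topoisomerase that untangles chromosomes before division, had 42.0 CPM (PCL-S) and 39.5 CPM (PCL-SE) on day 7, against 113 CPM (PCL-O) and 93.3 CPM (PCL-E), and 157 CPM (PCL-S) and 152 CPM (PCL-SE) on day 3, against 90.2 CPM (PCL-O) and 101 CPM (PCL-E), a change of -2.03 ± 0.16 (SE; edgeR adjusted p = 0.0012). The kinetochore proteins Cenpe and Cenpf changed by -2.17 ± 0.13 and -2.26 ± 0.28, and Kif23, a motor protein of cell separation, by -2.03 ± 0.12. A lower S7 ratio on day 7 was called for 24 to 27 members, whichever library was left out. The number counted as reversing depended on the day 3 libraries: it was 23 with all of them, 2 without PCL-O day 3, 3 without PCL-S day 3, 6 without PCL-SE day 3 and 13 without PCL-E day 3.

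DNA replication genes changed less than mitotic genes in the median, at -0.47. Of 27 tested, 12 were lower and 2 higher on day 7. Lower members numbered 7 when PCL-O of day 3 was left out. None was higher with an E7 by day term or when PCL-S or PCL-SE of day 7 or PCL-S, PCL-SE or PCL-E of day 3 was left out, and 1 was without PCL-O of day 3. With total-count scaling 9 were lower and 4 higher, and the median change was -0.17. Ccne2, the cyclin that starts DNA synthesis, reversed with a change of -2.05 ± 0.15 (SE; edgeR adjusted p = 0.00114), whereas Rrm2, the ribonucleotide reductase subunit, had ratios of -0.11 on day 7 and 0.96 on day 3 and changed by -1.07 ± 0.14 (SE; edgeR adjusted p = 0.0034). Pcna, the sliding clamp of DNA polymerases, was 1 of the 2 with a higher ratio on day 7, by 0.35 ± 0.09 (SE; edgeR adjusted p = 0.0284), and it lost the call when any library other than PCL-O day 7 or PCL-E day 7 was left out and with an E7 by day term (adjusted p 0.0548).

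Inhibitors of the cell cycle did not move together. Cdkn1a took the mirror course, whereas Cdkn2c reversed downward as most mitotic genes did. With each arm as a replicate block, Cdkn2c had S7 ratios of -0.47 on day 7 and 0.62 on day 3. Cdkn1b also had a lower ratio on day 7, a call lost under that block, and Cdkn2a and Cdkn2b were not called. Cdkn1a, the p21 inhibitor of cyclin-dependent kinases, had 823 CPM (PCL-S) and 808 CPM (PCL-SE) on day 7, against 395 CPM (PCL-O) and 495 CPM (PCL-E), and 239 CPM (PCL-S) and 244 CPM (PCL-SE) on day 3, against 383 CPM (PCL-O) and 367 CPM (PCL-E). The S7 arms were the lowest libraries on day 3 and the highest on day 7, and the change was 1.51 ± 0.16 (SE; edgeR adjusted p = 0.00201). Mdm2, the ubiquitin ligase of p53 and itself a p53 target, had 414 CPM (PCL-S) and 410.3 CPM (PCL-SE) on day 7, against 176 CPM (PCL-O) and 233 CPM (PCL-E), and 116 CPM (PCL-S) and 122 CPM (PCL-SE) on day 3, against 184 CPM (PCL-O) and 169 CPM (PCL-E), a change of 1.59 ± 0.18 (SE; edgeR adjusted p = 0.00237). Gdf15, a stress-induced cytokine, changed by 3.32 ± 0.40 (SE; edgeR adjusted p = 0.00271) with ratios of 2.56 on day 7 and -0.76 on day 3. In the whole list of inhibitors, D cyclins and p53 targets, 7 of 18 were higher on day 7 and 5 lower. Of all tested genes 17.5% were higher and 21.1% lower, so the share of lower members was not far from that of all genes. The number of lower members was 1 when PCL-SE of day 3 was left out, 2 when PCL-S or PCL-SE of day 7 or PCL-O or PCL-E of day 3 was left out, 3 when PCL-O of day 7 or PCL-S of day 3 was left out, and 2 under total-count scaling. It was also 2 with no low-count filter and 3 with edgeR's own filter, with each arm as a replicate block or with an E7 by day term. When any 1 of the day 3 libraries was left out, no gene of this list, Cdkn1a and Mdm2 included, counted as reversing.

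Collagens had the largest absolute list median among lists with 5 or more tested members. Of 19 tested fibrillar and associated collagens, 18 had a lower S7 ratio on day 7, with a median change of -2.50, and 18 or 19 did so whichever library was left out. The median S7 ratio was -1.98 on day 7 and 0.63 on day 3. Col1a1, the main collagen of bone, had 4767 CPM (PCL-S) and 4402 CPM (PCL-SE) on day 7, against 26437 CPM (PCL-O) and 15212 CPM (PCL-E), and 35058 CPM (PCL-S) and 32134 CPM (PCL-SE) on day 3, against 20603 CPM (PCL-O) and 21667 CPM (PCL-E). The S7 arms held the most Col1a1 on day 3 and the least on day 7, without overlap on either day, and the change was -2.82 ± 0.29 (SE; edgeR adjusted p = 0.00198). The day 3 ratio of 0.66 had an adjusted p of 0.0673 in edgeR. The type I and III collagen genes together held 0.985% (PCL-S) and 0.937% (PCL-SE) of all counts on day 7, against 4.25% (PCL-O) and 2.82% (PCL-E). On day 3 they held 5.40% (PCL-S) and 5.01% (PCL-SE), against 3.49% (PCL-O) and 3.75% (PCL-E). Col14a1, a fibril-associated collagen, had 16.5 CPM (PCL-S) and 14.2 CPM (PCL-SE) on day 7, against 231 CPM (PCL-O) and 232 CPM (PCL-E), and 215 CPM (PCL-S) and 218 CPM (PCL-SE) on day 3, against 344 CPM (PCL-O) and 307 CPM (PCL-E), a change of -3.33 ± 0.13 (SE; edgeR adjusted p = 0.000345). Col18a1, the source of endostatin, had 15.9 CPM (PCL-S) and 18.9 CPM (PCL-SE) on day 7, against 39.3 CPM (PCL-O) and 18.8 CPM (PCL-E), and 130.1 CPM (PCL-S) and 121 CPM (PCL-SE) on day 3, against 20.2 CPM (PCL-O) and 24.3 CPM (PCL-E), a change of -3.18 ± 0.44 (SE; edgeR adjusted p = 0.00379).

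Enzymes that fold and crosslink collagen were lower as well. Of 19 tested, 16 were lower on day 7, with a median change of -0.97. With total-count scaling 13 were lower and 1 higher, and the median was -0.67. Serpinh1, the collagen chaperone HSP47, had 1191 CPM (PCL-S) and 1109.6 CPM (PCL-SE) on day 7, against 2681 CPM (PCL-O) and 2688 CPM (PCL-E), and 2668 CPM (PCL-S) and 2687 CPM (PCL-SE) on day 3, against 2398 CPM (PCL-O) and 2419.9 CPM (PCL-E). The day 3 levels were close, and on day 7 both S7 arms were far below both other arms, a late change of -1.38 ± 0.12 (SE; edgeR adjusted p = 0.00137). Loxl2, a lysyl oxidase, changed by -2.03 ± 0.13 (SE; edgeR adjusted p = 0.000831), and Bmp1, the protease that trims procollagen, by -2.23 ± 0.20 (SE; edgeR adjusted p = 0.00157). General chaperones of the endoplasmic reticulum showed a smaller change, lower for 15 of 21 with a median of -0.61. For these chaperones total-count scaling gave 10 lower and 1 higher, with a median of -0.31, so their change depends on the scaling. Hsp90b1, known as GRP94, changed by -2.00 ± 0.12 (SE; edgeR adjusted p = 0.000831), Pdia4, a disulfide isomerase, by -1.83 ± 0.11, and Hspa5, known as BiP, by -1.19 ± 0.13.

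Other matrix lists changed the same way. In the elastic fibre list 12 of 16 were lower on day 7 and none higher, with a median of -1.28. This count of lower members was 7 when PCL-SE or PCL-O of day 3 was left out. Eln, elastin itself, had 4.88 CPM (PCL-S) and 13.8 CPM (PCL-SE) on day 7, against 1079 CPM (PCL-O) and 302 CPM (PCL-E), and 760.2 CPM (PCL-S) and 678 CPM (PCL-SE) on day 3, against 1296 CPM (PCL-O) and 1601 CPM (PCL-E). The S7 arms were below the others on both days, and far more so on day 7, by -5.13 ± 0.98 (SE; edgeR adjusted p = 0.0096), a call that was lost without PCL-O day 3. The day 3 ratio of Eln was not called. With each arm as a replicate block it was -1.06 (edgeR adjusted p = 0.263). Fbn1, the main microfibril protein, appeared late and changed by -3.23 ± 0.33 (SE; edgeR adjusted p = 0.00181), whereas Fbln2, a fibulin, reversed with ratios of -1.60 on day 7 and 0.98 on day 3 and a change of -2.58 ± 0.20 (SE; edgeR adjusted p = 0.00116).

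Of 15 tested basement membrane genes, 14 were lower on day 7, with a median of -2.31, and 11 to 15 were so whichever library was left out. Lama2, a laminin chain, had 12.1 CPM (PCL-S) and 10.6 CPM (PCL-SE) on day 7, against 18.4 CPM (PCL-O) and 19.8 CPM (PCL-E), and 218 CPM (PCL-S) and 202 CPM (PCL-SE) on day 3, against 26.1 CPM (PCL-O) and 45.9 CPM (PCL-E). Its S7 ratio reversed from a large excess on day 3, a change of -3.31 ± 0.33 (SE; edgeR adjusted p = 0.0018). Col4a1, the main basement membrane collagen, had 809 CPM (PCL-S) and 686 CPM (PCL-SE) on day 7, against 2289 CPM (PCL-O) and 1881 CPM (PCL-E), and 5665 CPM (PCL-S) and 5284 CPM (PCL-SE) on day 3, against 2252 CPM (PCL-O) and 3111 CPM (PCL-E), a change of -2.51 ± 0.26 (SE; edgeR adjusted p = 0.00201). Hmcn1, which encodes hemicentin, kept a negative ratio that grew by -3.42 ± 0.29 (SE; edgeR adjusted p = 0.00137). Matricellular proteins and proteoglycans were lower for 16 of 24 and higher for none, and Fn1, fibronectin, appeared late with 8043 CPM (PCL-S) and 7364 CPM (PCL-SE) on day 7, against 28868 CPM (PCL-O) and 19706 CPM (PCL-E), and 32747 CPM (PCL-S) and 30697 CPM (PCL-SE) on day 3, against 24118 CPM (PCL-O) and 22971 CPM (PCL-E), a change of -2.07 ± 0.20 (SE; edgeR adjusted p = 0.00169). Metalloproteinases and their inhibitors were lower for 14 of 22 and higher for 1, and none was higher when any library other than PCL-O or PCL-E of day 7 was left out. Timp3, a matrix-bound inhibitor, changed by -3.19 ± 0.34 (SE; edgeR adjusted p = 0.00208), and Adamts5, an aggrecan-cutting protease, reversed with a change of -2.46 ± 0.24 (SE; edgeR adjusted p = 0.00177).

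Contractile and adhesion genes mostly had a lower S7 ratio on day 7. In the smooth muscle list this was called for 17 of 22 and 9 counted as late, with a median of -1.15; 6 counted as late with total-count scaling. Acta2, smooth muscle actin, kept a negative ratio that grew by -1.66 ± 0.15 (SE; edgeR adjusted p = 0.00157), with ratios of -2.26 on day 7 and -0.60 on day 3. Actg2, a second smooth muscle actin, changed by -4.48 ± 0.58 (SE; edgeR adjusted p = 0.00326). Of 24 integrin and focal adhesion genes, 19 were lower, 1 higher and 10 late, with a median of -1.15. Late members numbered 5 with total-count scaling and 4 without PCL-O day 7, and none was higher without PCL-S day 7 or without PCL-S, PCL-SE or PCL-E of day 3. Depending on the library left out, lower members numbered 11 when PCL-SE or PCL-O of day 3 was left out and 12 when PCL-S of day 7 was left out. Itga11, a collagen-binding integrin, had 149.7 CPM (PCL-S) and 149 CPM (PCL-SE) on day 7, against 518 CPM (PCL-O) and 644 CPM (PCL-E), and 428 CPM (PCL-S) and 414 CPM (PCL-SE) on day 3, against 436 CPM (PCL-O) and 444 CPM (PCL-E). The S7 arms were slightly below the others on day 3, without overlap, and far below them on day 7, and the change was -1.89 ± 0.15 (SE; edgeR adjusted p = 0.00123). Itgb1, the common beta chain, changed by -1.48 ± 0.12 (SE; edgeR adjusted p = 0.00132), and Itga4, a fibronectin-binding chain, by -2.58 ± 0.22 (SE; edgeR adjusted p = 0.00141).

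**Figure D3:**
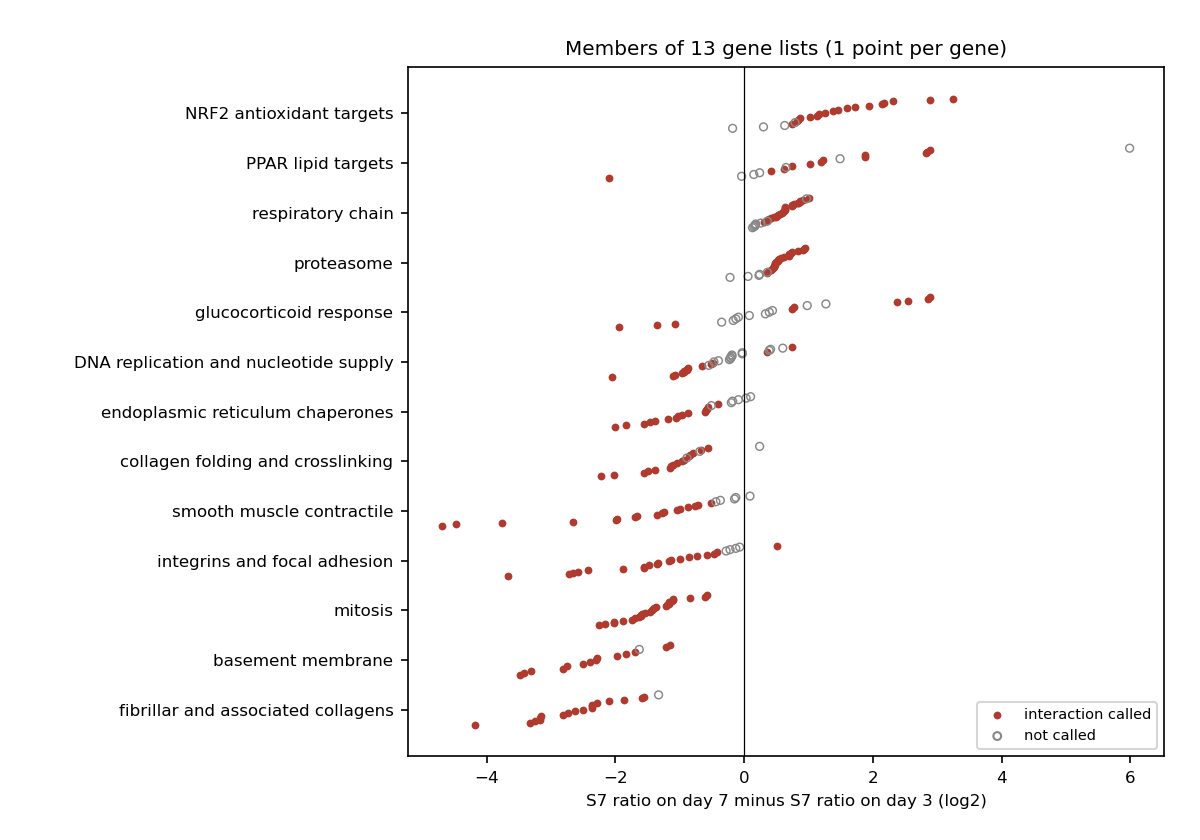
Change of the S7 ratio (day 7 minus day 3, log2 units) for each tested member of 13 gene lists, 1 point per gene; filled points were called and open points were not. The 27 mitosis points and nearly all matrix points lie left of 0, and NRF2, respiratory chain and proteasome points lie mostly right of 0.

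Of 22 tested NRF2 targets, 18 had a higher S7 ratio on day 7 and none a lower one, with a median change of 1.22. The median S7 ratio was 1.58 on day 7 and -0.04 on day 3, and 11 members appeared late (7 without PCL-O day 7). Higher members numbered 11 when PCL-SE of day 3 was left out. Gstp1, a glutathione transferase, had 772 CPM (PCL-S) and 695 CPM (PCL-SE) on day 7, against 126 CPM (PCL-O) and 204 CPM (PCL-E), and 155 CPM (PCL-S) and 159 CPM (PCL-SE) on day 3, against 155 CPM (PCL-O) and 159.9 CPM (PCL-E). The 4 arms lay close together on day 3 and apart on day 7, and the change was 2.18 ± 0.28 (SE; edgeR adjusted p = 0.00298). Sqstm1, the autophagy receptor p62, had 1328 CPM (PCL-S) and 1276 CPM (PCL-SE) on day 7, against 357 CPM (PCL-O) and 501 CPM (PCL-E), and 354 CPM (PCL-S) and 355 CPM (PCL-SE) on day 3, against 381 CPM (PCL-O) and 385 CPM (PCL-E), a change of 1.72 ± 0.20 (SE; edgeR adjusted p = 0.00252). Hmox1, heme oxygenase, had 2449 CPM (PCL-S) and 2309 CPM (PCL-SE) on day 7, against 194 CPM (PCL-O) and 681 CPM (PCL-E), and 143 CPM (PCL-S) and 159.8 CPM (PCL-SE) on day 3, against 267 CPM (PCL-O) and 213 CPM (PCL-E). On day 7 PCL-E lay between PCL-O and the S7 arms, and the change was 3.25 ± 0.68 (SE; edgeR adjusted p = 0.0129); it passed the threshold no longer without PCL-S day 3 (adjusted p 0.0504), PCL-SE day 3 (0.0543) or PCL-S day 7 (0.0524). Osgin1, a stress-induced growth inhibitor, changed by 2.88 ± 0.42 (SE; edgeR adjusted p = 0.0045), and Gclc, which makes the first step of glutathione synthesis, by 1.38 ± 0.17 (SE; edgeR adjusted p = 0.00271). Ftl1, the ferritin light chain, changed by 1.94 ± 0.32 (SE; edgeR adjusted p = 0.0062), and has related gene copies, so its counts are uncertain.

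Lipid genes that PPAR receptors control were higher on day 7 for 11 of 18 and lower for 1, with a median of 1.11. The number of higher members was 3 when PCL-S of day 7 or PCL-SE or PCL-O of day 3 was left out, 6 when PCL-S of day 3 was left out and 7 when PCL-SE of day 7 was left out. Plin2, a coat protein of lipid droplets, had 127 CPM (PCL-S) and 122 CPM (PCL-SE) on day 7, against 26.3 CPM (PCL-O) and 52.3 CPM (PCL-E), and 21.3 CPM (PCL-S) and 24.7 CPM (PCL-SE) on day 3, against 25.1 CPM (PCL-O) and 26.4 CPM (PCL-E), a late change of 1.88 ± 0.34 (SE; edgeR adjusted p = 0.00798). Txnip, the thioredoxin-binding protein, was the lower member and reversed: it had 33.1 CPM (PCL-S) and 29.0 CPM (PCL-SE) on day 7, against 97.5 CPM (PCL-O) and 57.2 CPM (PCL-E), and 152 CPM (PCL-S) and 158 CPM (PCL-SE) on day 3, against 86.9 CPM (PCL-O) and 90.7 CPM (PCL-E), a change of -2.10 ± 0.29 (SE; edgeR adjusted p = 0.0036). In the cholesterol synthesis list 8 of 19 were lower and none higher. This count of lower members was 5 when PCL-S of day 7 was left out and 17 when PCL-E of day 7 was left out. The median day 7 ratio of this list was -0.18 and turned to 0.12 with total-count scaling, which left its median change negative.

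Genes of energy supply and protein turnover changed by small amounts in 1 direction. Of 33 respiratory chain genes, 25 were higher on day 7 and none lower, with a median of 0.59. Depending on the library left out, higher members numbered 10 when PCL-S of day 3 was left out, 11 when PCL-SE of day 3 was left out, 14 when PCL-S of day 7 or PCL-O of day 3 was left out and 15 when PCL-E of day 3 was left out. Uqcrc1, a core subunit of complex III, had 212 CPM (PCL-S) and 213 CPM (PCL-SE) on day 7, against 93.4 CPM (PCL-O) and 105 CPM (PCL-E), and 112 CPM (PCL-S) and 117 CPM (PCL-SE) on day 3, against 93.4 CPM (PCL-O) and 101 CPM (PCL-E), a change of 0.86 ± 0.11 (SE; edgeR adjusted p = 0.00288). Ndufb7, a subunit of complex I, changed by 1.01 ± 0.12 (SE; edgeR adjusted p = 0.00264). Of 30 proteasome genes, 25 were higher and none lower, with a median of 0.48. Higher members numbered 7 when PCL-SE of day 3 was left out, 8 when PCL-S or PCL-O of day 3 was left out, 10 when PCL-S of day 7 was left out and 11 when PCL-E of day 3 was left out. Psmb6, a catalytic subunit, had 76.9 CPM (PCL-S) and 77.5 CPM (PCL-SE) on day 7, against 39.4 CPM (PCL-O) and 41.5 CPM (PCL-E), and 41.3 CPM (PCL-S) and 45.4 CPM (PCL-SE) on day 3, against 43.7 CPM (PCL-O) and 43.8 CPM (PCL-E), a change of 0.95 ± 0.10 (SE; edgeR adjusted p = 0.00217). Ribosomal protein genes, many of which have processed copies, were higher for 15 of 35 with a median of 0.38. The number of higher members was 3 when PCL-SE of day 3 was left out, 5 when PCL-O or PCL-E of day 3 was left out, 6 when PCL-S of day 3 was left out, 7 when PCL-S of day 7 was left out, 33 when PCL-E of day 7 was left out, and 27 under total-count scaling. These medians lie close to the shift of 0.293 that total-count scaling gives all genes; with it they were 0.89, 0.78 and 0.68 for the 3 lists.

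Most glucocorticoid-responsive genes were called higher in the S7 arms on each day. On day 7 17 of 19 were called higher, with a median ratio of 1.66, and on day 3 15 were, with a median of 1.41. Of all 10700 tested genes, 3190 were called higher on day 7 and 1016 on day 3. For the change, 6 of 19 were higher on day 7 and 3 lower, against 17.5% higher and 21.1% lower of all tested genes. The lower members were thus no larger a share than among all genes. This count of higher members was 3 when PCL-SE or PCL-O of day 3 was left out. Depending on the library left out, lower members numbered 1 when PCL-S or PCL-SE of day 7 or PCL-S or PCL-SE of day 3 was left out. Zbtb16, a zinc finger repressor induced by glucocorticoids, had 13.8 CPM (PCL-S) and 16.1 CPM (PCL-SE) on day 7, against 0.194 CPM (PCL-O) and 0.261 CPM (PCL-E), and 23.1 CPM (PCL-S) and 23.1 CPM (PCL-SE) on day 3, against 2.21 CPM (PCL-O) and 1.59 CPM (PCL-E). Its level on day 7 was below that of day 3 in every arm, but less so with S7, and its ratio changed by 2.38 ± 0.35 (SE; edgeR adjusted p = 0.00446). Ddit4, an inhibitor of mTOR signalling, had ratios of -0.55 on day 7 and 1.41 on day 3 and changed by -1.95 ± 0.31 (SE; edgeR adjusted p = 0.00584).

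**Figure D4:**
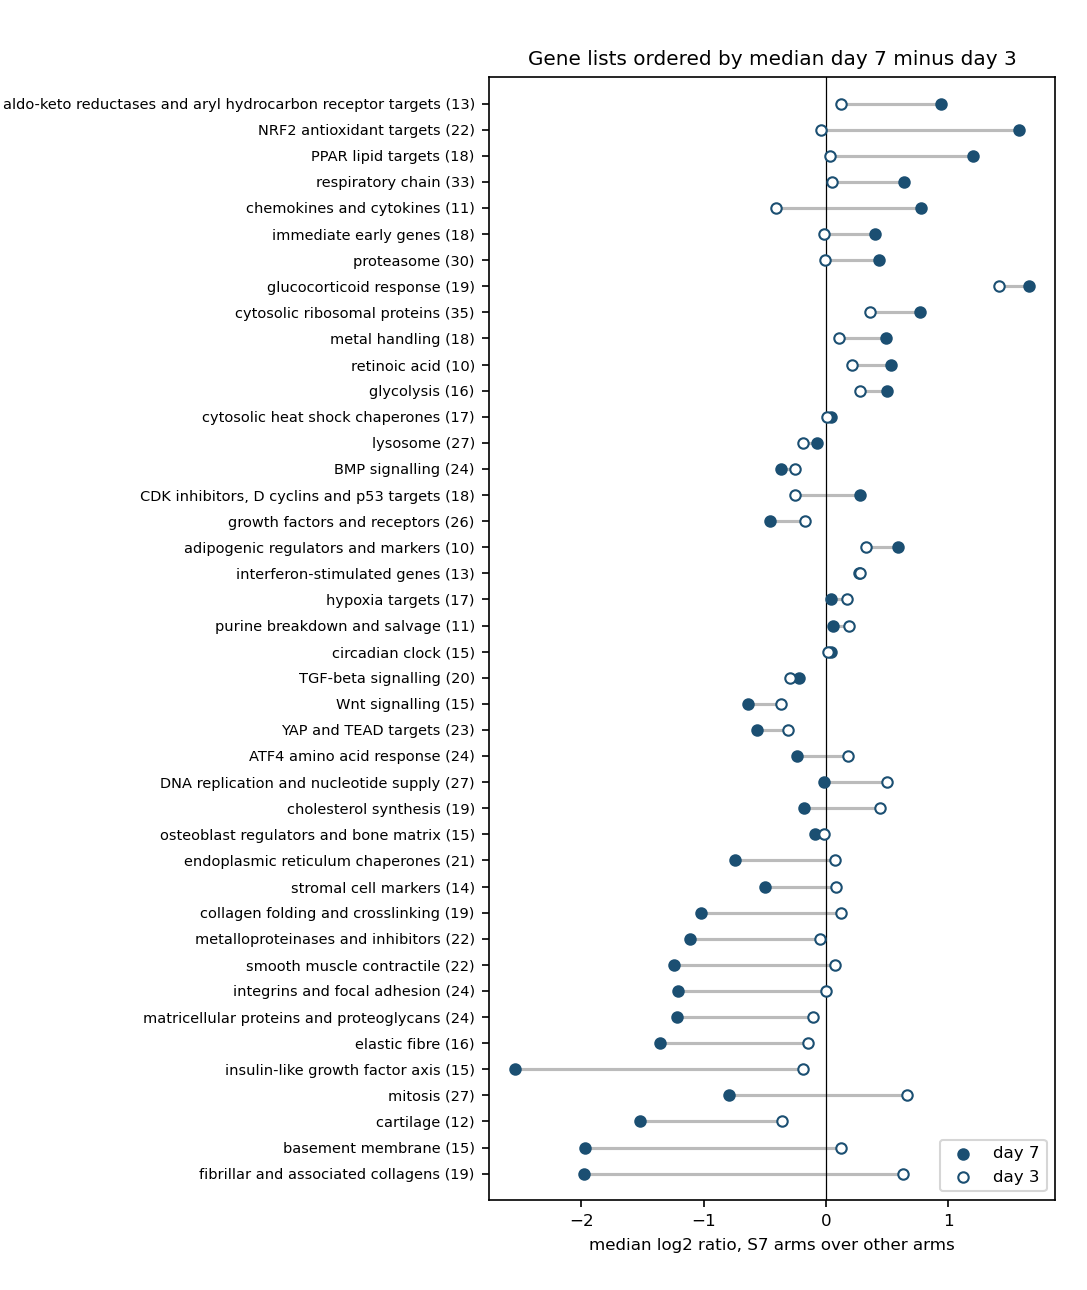
Median S7 ratio (log2) of each gene list with 10 or more tested genes, on day 7 (filled points) and day 3 (open points). Lists are ordered by the median change of their genes, with the number of tested genes in parentheses. Collagen and basement membrane lists lie near -2 on day 7, and the glucocorticoid list lies to the right of 0 on both days.

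Bone and cartilage genes did not all take the same course. Their counts stand against 17.5% higher and 21.1% lower of all tested genes, and higher members were no larger a share. Of 15 tested osteoblast genes, 6 were lower and 2 higher on day 7, with 1 higher when PCL-S or PCL-SE of day 7 or PCL-SE, PCL-O or PCL-E of day 3 was left out. Alpl, the alkaline phosphatase needed for mineralisation, had 0.588 CPM (PCL-S) and 1.11 CPM (PCL-SE) on day 7, against 14.1 CPM (PCL-O) and 8.52 CPM (PCL-E), and 8.08 CPM (PCL-S) and 7.78 CPM (PCL-SE) on day 3, against 10.2 CPM (PCL-O) and 13.4 CPM (PCL-E). The S7 arms were slightly below the others on day 3 and far below on day 7, a change of -3.14 ± 0.50 (SE; edgeR adjusted p = 0.00563). Vdr, the vitamin D receptor, reversed: it had 6.47 CPM (PCL-S) and 7.26 CPM (PCL-SE) on day 7, against 28.5 CPM (PCL-O) and 17.4 CPM (PCL-E), and 36.5 CPM (PCL-S) and 33.4 CPM (PCL-SE) on day 3, against 15.7 CPM (PCL-O) and 14.7 CPM (PCL-E), a change of -2.91 ± 0.28 (SE; edgeR adjusted p = 0.00177). Tnfrsf11b, the osteoclast inhibitor osteoprotegerin, appeared late with a change of -1.91 ± 0.20 (SE; edgeR adjusted p = 0.00203). Runx2, the master regulator of osteoblasts, had ratios of 0.29 on day 7 and 0.85 on day 3 and changed by -0.56 ± 0.18 (SE; edgeR adjusted p = 0.0493), and its call was lost under every alternative run except DESeq2, DESeq2-type size factors and leaving out PCL-SE day 3 or PCL-O day 7. In the cartilage list 8 of 12 were lower and none higher. Lower members numbered 5 when PCL-O of day 3 was left out. Matn2, a matrilin, faded: it had 3.14 CPM (PCL-S) and 3.49 CPM (PCL-SE) on day 7, against 4.05 CPM (PCL-O) and 3.75 CPM (PCL-E), and 16.9 CPM (PCL-S) and 16.2 CPM (PCL-SE) on day 3, against 2.84 CPM (PCL-O) and 3.27 CPM (PCL-E), a change of -2.67 ± 0.23 (SE; edgeR adjusted p = 0.00137).

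Lists of secreted signals and their receptors held both called directions, apart from the insulin-like growth factor list. That exception depended on the scaling, since total-count scaling gave that list 2 higher and 7 lower members. In the insulin-like growth factor list 7 of 15 were lower and none higher, and Igf2, the growth factor itself, changed by -3.08 ± 0.33 (SE; edgeR adjusted p = 0.00212), while Igfbp7, a binding protein, reversed with a change of -1.63 ± 0.16 (SE; edgeR adjusted p = 0.0017). Vegfb, a vascular endothelial growth factor, reversed upward with 61.0 CPM (PCL-S) and 55.7 CPM (PCL-SE) on day 7, against 33.2 CPM (PCL-O) and 32.1 CPM (PCL-E), and 19.0 CPM (PCL-S) and 18.0 CPM (PCL-SE) on day 3, against 28.0 CPM (PCL-O) and 28.6 CPM (PCL-E), a change of 1.45 ± 0.11 (SE; edgeR adjusted p = 0.00116). Vegfa, the main vascular growth factor, appeared late and lower with 55.9 CPM (PCL-S) and 53.2 CPM (PCL-SE) on day 7, against 157 CPM (PCL-O) and 111 CPM (PCL-E), and 123 CPM (PCL-S) and 123 CPM (PCL-SE) on day 3, against 131 CPM (PCL-O) and 139 CPM (PCL-E), a change of -1.15 ± 0.20 (SE; edgeR adjusted p = 0.00756). Thus the 2 ligands had S7 ratios of opposite sign on day 7. Tgfb2, a TGF-beta ligand, changed by -1.59 ± 0.17 (SE; edgeR adjusted p = 0.00217), whereas Smad3, a transcription factor of the same pathway, faded with ratios of -0.10 on day 7 and -1.04 on day 3 and a change of 0.94 ± 0.13 (SE; edgeR adjusted p = 0.00386). Over the TGF-beta list the median change was -0.23 and turned to 0.07 with total-count scaling. In the BMP list 5 of 24 were lower and 4 higher, Bmp2 among the higher, which are shares near the 21.1% lower and 17.5% higher of all tested genes. The number of higher members was 1 when PCL-SE or PCL-O of day 3 was left out, 2 when PCL-S or PCL-SE of day 7 or PCL-S of day 3 was left out and 11 when PCL-E of day 7 was left out. This count of lower members was 2 when PCL-S of day 7 or PCL-SE, PCL-O or PCL-E of day 3 was left out and 3 when PCL-S of day 3 was left out. Chrd, the BMP antagonist chordin, reversed with a change of -2.15 ± 0.23 (SE; edgeR adjusted p = 0.00212), but with each arm as a replicate block its day 3 ratio had an adjusted p of 0.0613 in edgeR and it did not count as reversing. Egfr, the epidermal growth factor receptor, appeared late and lower with a change of -2.73 ± 0.45 (SE; edgeR adjusted p = 0.00623).

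Surface markers of stromal cells were among the genes that changed, 7 lower and 1 higher of 14 tested. None was higher without PCL-S day 7 or when any 1 of the day 3 libraries was left out. Nt5e, the CD73 ectoenzyme, had 1.61 CPM (PCL-S) and 1.94 CPM (PCL-SE) on day 7, against 3.82 CPM (PCL-O) and 2.61 CPM (PCL-E), and 18.8 CPM (PCL-S) and 17.8 CPM (PCL-SE) on day 3, against 4.61 CPM (PCL-O) and 6.89 CPM (PCL-E). The S7 arms were the highest libraries on day 3 and the lowest on day 7, a change of -2.52 ± 0.39 (SE; edgeR adjusted p = 0.00506). Thy1, or CD90, had 352 CPM (PCL-S) and 321 CPM (PCL-SE) on day 7, against 449 CPM (PCL-O) and 497 CPM (PCL-E), and 908 CPM (PCL-S) and 919.8 CPM (PCL-SE) on day 3, against 608 CPM (PCL-O) and 749 CPM (PCL-E), a change of -0.92 ± 0.16 (SE; edgeR adjusted p = 0.00786). Mcam, or CD146, kept a negative ratio that grew by -2.35 ± 0.24 (SE; edgeR adjusted p = 0.0018). With total-count scaling none of these genes counted as reversing. Of the lysosomal list, 8 of 27 were higher and 5 lower, the second a share near that of all tested genes. Depending on the library left out, higher members numbered 3 when PCL-S of day 3 was left out, 4 when PCL-O or PCL-E of day 3 was left out, 5 when PCL-S of day 7 or PCL-SE of day 3 was left out, and 19 under total-count scaling. Lower members numbered 3 when PCL-S or PCL-SE of day 7 or PCL-S, PCL-SE, PCL-O or PCL-E of day 3 was left out and 3 under total-count scaling. Ctsk, the collagen-degrading cathepsin K, reversed downward: it had 33.9 CPM (PCL-S) and 35.4 CPM (PCL-SE) on day 7, against 96.6 CPM (PCL-O) and 106 CPM (PCL-E), and 80.6 CPM (PCL-S) and 82.8 CPM (PCL-SE) on day 3, against 54.3 CPM (PCL-O) and 56.7 CPM (PCL-E), a change of -2.10 ± 0.10 (SE; edgeR adjusted p = 0.000698). Atp6v1b2, a subunit of the proton pump, reversed upward with a change of 1.40 ± 0.14 (SE; edgeR adjusted p = 0.00177).

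The change could be estimated from 2 sets of libraries that share none, as PCL-S over PCL-O and as PCL-SE over PCL-E, each day 7 minus day 3 on the scale of log2(CPM + 2). The estimates had the same sign in 4123 of the 4127 called genes and in 80.3% of all tested genes, and across genes they correlated with r = 0.809. Both estimates entered the fit that made the calls, so the first count is no independent check, and genes are not independent replicates. The median absolute estimate of called genes was 0.65 for PCL-SE over PCL-E and 0.80 for PCL-S over PCL-O, and it was larger for PCL-S over PCL-O in 2880 called genes (69.8%). For Myh11 the estimates were -4.09 for PCL-S over PCL-O and -3.00 for PCL-SE over PCL-E. For Nqo1 they were 3.58 for PCL-S over PCL-O and 1.38 for PCL-SE over PCL-E, and for Pla2g7 2.83 for PCL-S over PCL-O and 3.16 for PCL-SE over PCL-E. On day 7 PCL-E lay between PCL-O and both S7 arms for 611 of the 758 late genes (80.6%), whose groups were all apart on that day. The share was 69.3% of the 8503 tested genes whose groups did not overlap on day 7. It was 12 of the 72 fading genes (16.7%), against 55.1% of all tested genes. Only 25 fading genes had groups apart on day 7, and the small day 7 ratio that defines fading limits this share. How far E7 alone or 1 library accounts for the position of PCL-E cannot be told apart, because each arm had 1 library a day.

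**Figure D5:**
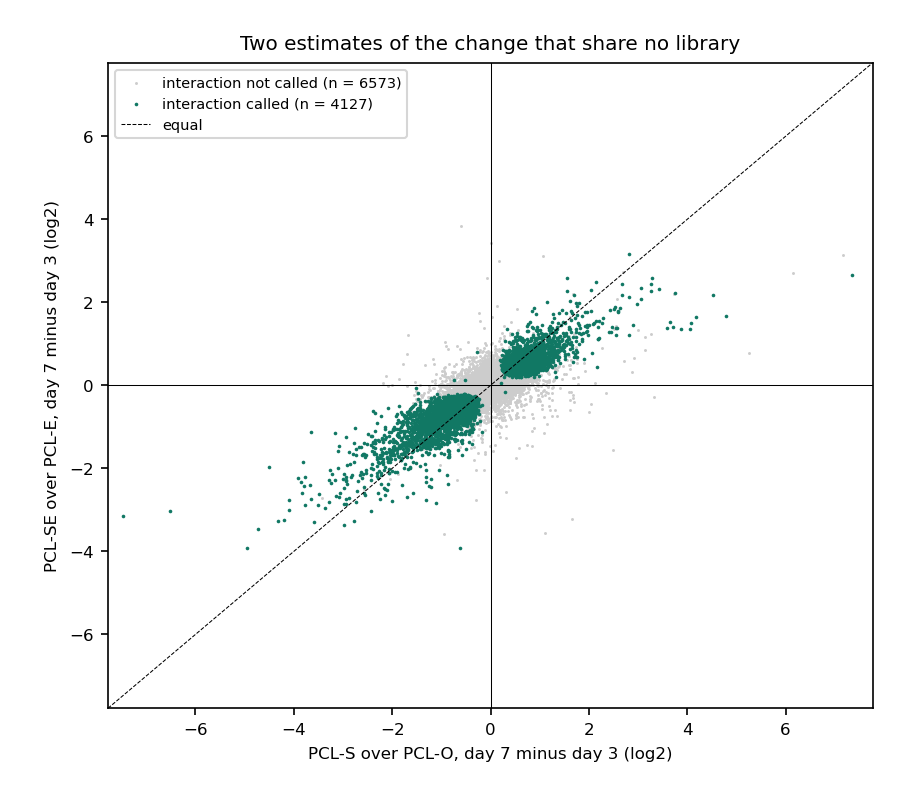
Change of the S7 ratio estimated as PCL-S over PCL-O (horizontal) and as PCL-SE over PCL-E (vertical), day 7 minus day 3 in log2 units, for all tested genes, with called genes in green. Called genes lie in the areas of equal sign except for 4 of 4127, and 2880 of them have the larger absolute value on the horizontal axis.

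The counts depended on single libraries. Without 1 library in turn, the genes called for the change numbered 1780 (without PCL-SE day 3), 1982 (PCL-O day 3), 2065 (PCL-S day 3), 2241 (PCL-S day 7), 2369 (PCL-E day 3), 3114 (PCL-SE day 7), 4358 (PCL-O day 7) and 5573 (PCL-E day 7). The reversing genes then numbered 57, 33, 23, 192, 117, 192, 565 and 704 in the same order. Late genes varied less, between 536 without PCL-SE day 3 and 1080 without PCL-E day 7, and fading genes between 19 without PCL-S day 3 and 93 without PCL-O day 7. Leaving out a library also removes a residual degree of freedom. The late and fading genes of these fits were not all the same genes as with all libraries. Some named late and fading genes left their class in such fits. No called gene named here changed direction under any alternative run.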

How the data were processed

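Whole-number counts per gene and library were taken as the authors deposited them, per the file headers. Per the labels' protocols, TRIzol was used for RNA extraction (n = 3) and a SMARTER mRNA kit for the libraries. Each arm has a single count column a day, and the sources used here name no pooling of RNA, aligner or counting tool. The 8 deposited FPKM columns and 10 lines of annotation text were left out. Of 26873 features, 22050 have rat identifiers and 4823 are new genes without a symbol.

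Counts of genes with at least 5 CPM in 2 or more libraries were scaled with TMM and fitted with edgeR 4.0.16 (quasi-likelihood F-tests, limma 3.58.1, R 4.3.3) with terms for S7, day, their interaction and E7. This left 3 residual degrees of freedom and gave a biological coefficient of variation of 0.117. P-values measure how far the pooled arms depart from the fitted terms, not variation between cultures. Benjamini-Hochberg adjustment ran over all 10700 tested genes, and SE is the standard error of the log2 change. Named genes followed a rule, the 6 largest changes per direction among reversing, late and fading genes and the 3 largest among growing and shrinking ones, with a symbol, at least 20 CPM in 1 library and the same sign in both separate estimates. Of the genes so chosen, 1 is not reported here. Members of the 48 gene lists (1037 genes listed, 1002 matched) could be named too. The members and lists were chosen with earlier results of these data known. Alternatives were DESeq2 1.42.0, DESeq2-type size factors, total-count scaling, other filters, a replicate block by arm, other E7 terms, other class limits and leaving out each library. Tables and figures used Python 3.11.15, pandas 2.3.3 and matplotlib 3.10.9.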

Additional observations from a re-analysis of the deposited data

Results flagged for a closer look

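The effect of S7 differed between the days, by the interaction test in edgeR, for 4127 genes, of which 337 reversed, 758 appeared late and 72 faded. The named genes below drew attention for the same reason, a called difference between the days; values are the S7 ratio on day 7 minus that on day 3, in log2 units. Among genes that reversed to a higher ratio, the changes were those of Cd24 (3.80), Pla2g7 (3.49), Edil3 (3.26), Slc40a1 (2.46), Adcy8 (2.38) and Brinp3 (1.92). Among genes that reversed to a lower ratio, they were those of Slco2a1 (-4.68), Tnn (-4.57), Mfap5 (-3.78), Ssc5d (-3.65), Ecm1 (-3.43) and Filip1 (-3.34). Late and higher were Tmem35a (3.13), Cpt1a (2.82), Arhgap22 (2.52), Nqo1 (2.32), Bmp2 (2.28) and Acot2 (2.21). Late and lower were Flt1 (-4.75), Casq2 (-4.69), Kank4 (-4.19), Igfbp4 (-3.96), Nrep (-3.86) and Myh11 (-3.77). An excess with S7 on day 3 faded for Tgm2 (-2.46), Rpl9 (-2.24), Lrrc32 (-2.10), Ifitm3 (-1.86), Gucy1a1 (-1.81) and Susd2 (-1.66). A deficit with S7 on day 3 faded for Apoe (2.41), Nrg1 (1.91), Kcnk2 (1.57), Slc1a3 (1.53), Slitrk5 (1.37) and Grem1 (1.22). An excess grew for Rem2 (2.92), Sgk1 (2.54) and Glrx (2.44). A deficit grew for Abi3bp (-4.68), Col2a1 (-4.18) and Cntn3 (-3.51). An excess shrank for Col7a1 (-3.15), Msln (-1.80) and Gpx3 (-1.75). A deficit shrank for Snap91 (1.68) and Emp2 (1.01). Counts for Slc40a1 and Rpl9 are uncertain, since near-identical copies or a second identifier can share their reads.

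New genes without a symbol lie outside the genes described in the report. When they were tested with the rest, 194 of 536 were called, 41 with a higher and 153 with a lower S7 ratio on day 7.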

How the results depend on the processing

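With all 8 libraries, 4127 genes were called (1869 higher, 2258 lower), and 337 reversed, 758 were late and 72 faded. Total-count scaling gave 3798 higher and 1363 lower calls. An adjusted p under 0.01 gave 1731 calls (669 higher, 1062 lower), 73 reversing and 34 fading genes. Late genes numbered 473 with a near-zero limit of 0.25, 1999 with a minimum of 0.58 and 82 with a minimum of 2, and fading genes 43, 207 and 9. Leaving out each library gave 1780 to 5573 calls (686 to 2678 higher, 1094 to 2895 lower), 23 to 704 reversing, 536 to 1080 late and 19 to 93 fading genes; each such fit also has fewer samples. Under DESeq2, DESeq2-type size factors, no or another low-count filter, new genes tested too and both other E7 terms, these counts stayed within 1.5 times.

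The labels give no replicate numbers. With each arm as a replicate block, pairing its days, 3922 genes were called (1756 higher, 2166 lower), and 264 reversed, 771 were late and 75 faded. Of the genes named in the report as changed, Runx2 and Cdkn1b lost their calls. Under this block Cd24, Pla2g7, Adcy8, Ssc5d, Chrd, Kif23, Nt5e and Pdia4 did not count as reversing, nor Nqo1 as late, while their changes stayed called. Among the called named and listed genes, no direction turned under any alternative; calls were lost for 54 with total-count scaling, 7 in DESeq2 and between 11 and 192 when a library was left out. Depth limits little at most of these levels. The size of changes that rest on libraries under 1 CPM depends on low counts, as for Rem2, Cntn3, Abi3bp, Col2a1, Kank4 and Flt1. The single library per arm and day limits every p-value.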
